A study of Capra hircus with 3 samples.

Results

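A set of 10 genes of the extracellular matrix was followed in the longissimus dorsi, the long muscle of the back, of goats (Capra hircus). They were chosen by name from the product text of the deposited table, which had to name decorin (DCN), lumican (LUM), biglycan (BGN), periostin (POSTN), tenascin C (TNC), fibronectin 1 (FN1), osteonectin (SPARC), lysyl oxidase (LOX, without the lysyl oxidase-like genes), elastin (ELN) or fibrillin 1 (FBN1). Each name was found once, so 10 of the 24689 entries of the table were members. RNA was sequenced from a kid goat of 2 months, a youth of 9 months and an adult of 24 months, with 1 library per stage and no treatment named. The sources used here do not give the breed, the sex, or whether animals were pooled. Stage, animal and library therefore cannot be told apart, no test between stages was possible, and every difference below is a difference between these libraries.

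The matrix between muscle fibres is a mesh of collagen fibrils laid down mostly by fibroblasts. Small leucine-rich proteoglycans such as decorin, lumican and biglycan sit on those fibrils and set their spacing and thickness, and decorin and biglycan also bind growth factors of the TGF-beta family. Fibronectin links cells to the mesh through integrins. Periostin, tenascin C and osteonectin are matricellular proteins, which tune how cells meet the matrix more than they carry load. They are best known from growing, loaded or healing tissue. Elastin and fibrillin build elastic fibres, and lysyl oxidase oxidises lysines of collagen and elastin so that the chains become crosslinked.

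Levels are in FPKM, which divides the fragments of a gene by its length and by a total for the library. Levels of different genes can therefore be set side by side per length. The totals behind the values were worked out from the steps between low values and came to 15829474, 14920689 and 18399385 reads for kid, youth and adult. Each level rests on a whole number of reads, and each ratio has an exact 95% interval of those reads, which covers counting error only. All 3 libraries were muscle by their leading markers: the summed FPKM of 10 myofibre genes, creatine kinase and skeletal actin among them, was 61947, 71012 and 79111 in kid, youth and adult. The extraction text of the labels speaks of mammary tissue, and 6 of 9 mammary epithelial markers were listed at 0 in all 3 libraries, the caseins CSN1S1, CSN2 and CSN3 among them.

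Decorin and osteonectin dominated the set. Most members stood highest in the youth library and lowest in the adult library, though several of these differences were within counting error. The summed FPKM of the 10 genes was 895 in kid, 992 in youth and 770.3 in adult, and DCN and SPARC together made up 78.0%, 78.7% and 78.1% of it. Youth was highest for 7 of 10 members, namely LUM, BGN, POSTN, FN1, SPARC, LOX and ELN, against 25.6% of the 12121 genes tested, those whose mean reached 1 FPKM. POSTN passed the minimum mean only through its youth level, so its place among the 7 was fixed by that filter and is no support for the count. TNC alone was highest in adult. DCN and FBN1 were highest in kid. The adult library was lowest for 9 of 10 members, all but TNC, against 45.2% of all genes. Both counts take differences of any size. The youth to kid intervals of BGN, LOX and ELN included 1, and so did the adult to kid intervals of POSTN, LOX and ELN. Under median-of-ratios scaling 8 members were highest in youth and 6 lowest in adult, against 32.0% and 36.1% of all genes. In bulk RNA, fewer cells of a type and less RNA per cell cannot be told apart.

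**Figure D1:**
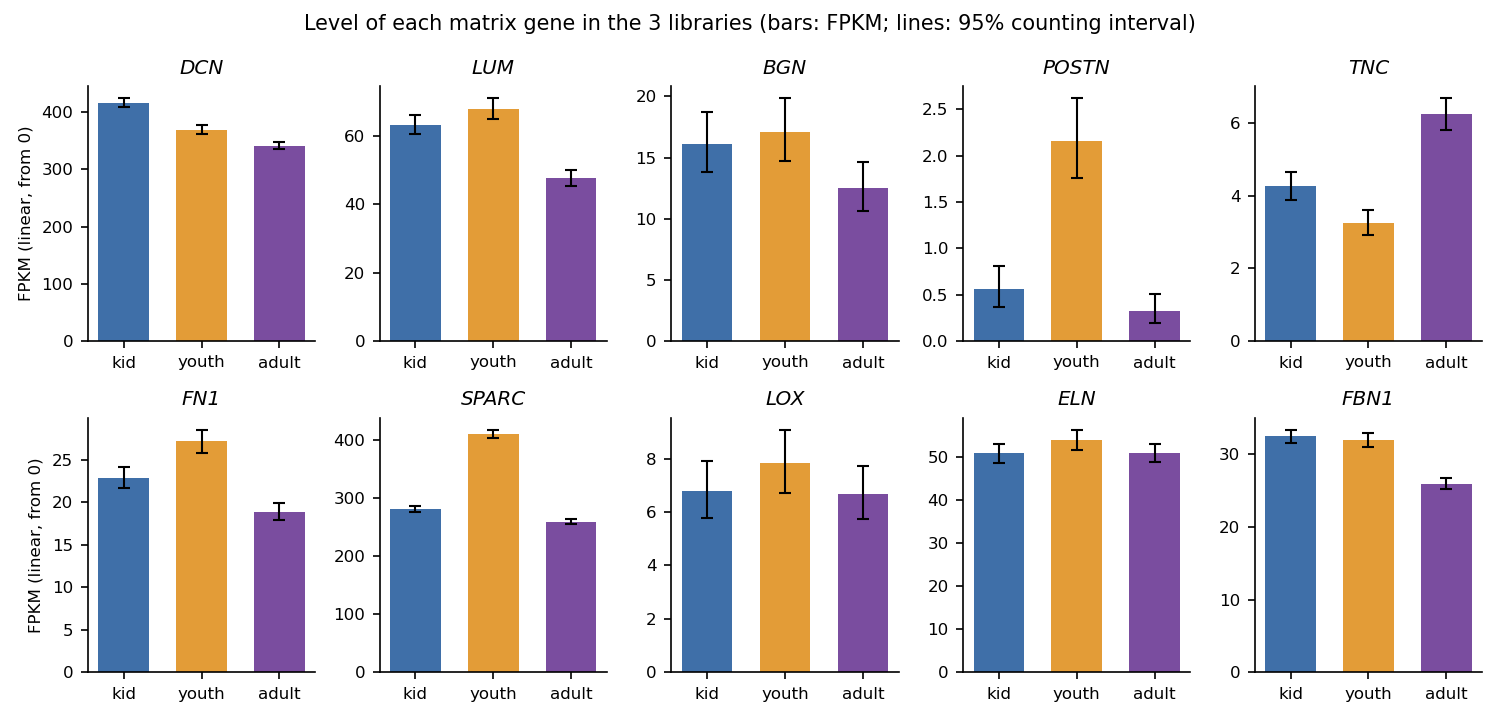
Level of each of the 10 matrix genes in FPKM (linear axes from 0, 1 panel per gene) in the kid, youth and adult libraries, with exact 95% Poisson intervals of the reads as lines. SPARC and POSTN stood out in the youth bar, at 411 and 2.16 FPKM, and TNC in the adult bar, at 6.24 FPKM.

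Among the proteoglycans, decorin (gene 100860944) was the most abundant and was lower in each older library. DCN was at 416 FPKM in kid (10605 reads), 370 in youth (8872 reads) and 341 in adult (10109 reads). The steps were small, a ratio of 0.888 between youth and kid (interval 0.863 to 0.913) and 0.924 between adult and youth (0.898 to 0.951), yet all 3 pairs of libraries differed beyond counting error on the deposited scale. The size of the steps depended on scaling: the log2 difference of youth from kid was -0.17 as deposited and -0.07 with median-of-ratios factors, that of adult from youth -0.11 and, by the upper quartile, -0.04, and that of adult from kid -0.29 and, with median-of-ratios factors, -0.15. By mean level DCN stood above 98.4% of the genes tested.

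Lumican (gene 102176393), which like decorin coats collagen fibrils, was at 63.3 FPKM in kid (1967 reads), 68.0 in youth (1993 reads) and 47.6 in adult (1721 reads). Its kid and youth levels were close, with a ratio of 1.07 (1.01 to 1.14), and the adult library stood apart from both. Adult LUM was 1.43-fold below youth (1.34 to 1.52) and 1.33-fold below kid (1.24 to 1.42). Biglycan (gene 102183219), a close relative of decorin with a pair of glycosaminoglycan chains in most forms, was the scarcest of the 3, with 16.1, 17.1 and 12.5 FPKM in kid, youth and adult. Its smallest whole read numbers were 175, 175 and 158, so its intervals are the wider ones. The kid and youth levels of BGN were not distinguishable by counting (ratio 1.06, interval 0.855 to 1.32), while adult was 1.37-fold below youth (1.10 to 1.70) and 1.29-fold below kid (1.03 to 1.61).

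The order DCN, LUM, BGN was the same in each library, and the proportion of LUM to BGN moved less than that of DCN to LUM. Per length there was 6.58 times as much DCN as LUM in kid, 5.43 times in youth and 7.17 times in adult, and 3.92, 3.97 and 3.80 times as much LUM as BGN. The 9 other small leucine-rich proteoglycan genes tested were led by osteoglycin (OGN) at 46.8, 43.2 and 29.3 FPKM in kid, youth and adult. In youth against kid 5 of these 9 were higher and 4 lower, against 35.7% and 64.3% of all genes, with none past 1.5-fold. From youth to adult 7 were lower and 2 higher, against 52.7% and 47.3%. Over all genes 5.4% were past 1.5-fold higher and 5.45% lower in that pair. Past 1.5-fold were fibromodulin (FMOD), which also binds collagen and was higher at 15.5 against 8.61 FPKM (1.80-fold, 1.58 to 2.06), and keratocan (KERA) and chondroadherin (CHAD), which were lower. CHAD was at 3.33 against 6.69 FPKM. KERA, named after its values were seen, was at 7.13 against 12.4 FPKM.

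The matricellular genes held the widest differences of the set. Periostin (gene 102172638), a fibroblast product that binds collagen and promotes its crosslinking, was at 0.559 FPKM in kid from 28 reads, 2.16 in youth from 102 reads and 0.326 in adult from 19 reads. The youth library stood above both others and the kid and adult levels overlapped within counting error (ratio 0.584, interval 0.308 to 1.08). POSTN was 3.86-fold higher in youth than in kid (2.52 to 6.10) and 6.62-fold higher in youth than in adult (4.03 to 11.4). It was the least abundant member, with a mean of 1.01 FPKM, just over the minimum of 1, and it reached that mean only through its youth level. A gene that passes in this way has to differ, so its place in any count here is no support for that count.

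Osteonectin (gene 100860800), which binds collagen and calcium and helps newly made procollagen leave the cell surface, was at 282 FPKM in kid (9878 reads), 411 in youth (13592 reads) and 259.8 in adult (10588 reads). SPARC was thus high in 1 library and lower, at nearly equal levels, in the other two. Youth exceeded kid 1.46-fold (1.42 to 1.5), a difference on the log2(FPKM + 1) scale that 1.86% of all genes surpassed. Adult was 1.58-fold below youth (1.54 to 1.62) and 1.08-fold below kid (1.05 to 1.11), the last of which turned to a log2 difference of 0.02 under median-of-ratios scaling. Its relative SPARCL1 (hevin), the most abundant of the other matricellular genes, did not share the youth peak, at 147, 133 and 131 FPKM. SPARC exceeded SPARCL1 by 1.92 times in kid, 3.09 times in youth and 1.99 times in adult.

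Tenascin C (gene 102179198), a large glycoprotein found at myotendinous junctions and in loaded or regenerating muscle, was the 1 member higher in adult than in youth or kid. TNC was at 4.26 FPKM in kid (466 reads), 3.25 in youth (335 reads) and 6.24 in adult (794 reads). All 3 pairs differed beyond counting error: youth was 1.31-fold below kid (1.14 to 1.51), adult 1.92-fold above youth (1.69 to 2.19) and 1.47-fold above kid (1.31 to 1.65). Tenascin XB (TNXB), a family member of loose connective tissue, was lower in each older library, at 22.2, 19.3 and 17.0 FPKM, so that it was lower with TNC in youth against kid and opposite to it in adult. TNXB exceeded TNC by 5.22, 5.93 and 2.72 times in kid, youth and adult.

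Some markers of tendon and cartilage were also highest in adult, and their part in its level was not tested. The summed FPKM of the 10 list genes in the table was 100.4 in kid, 94.96 in youth and 124 in adult, and 6 of the 10 were tested. Between youth and adult 3 of these 6 were past 1.5-fold higher and 2 past 1.5-fold lower, against 5.4% and 5.45% of all genes. Of the 3 higher genes, COMP and TNMD passed the minimum mean only through their adult level, which fixed their direction, so the count supports nothing about the list. Cartilage oligomeric matrix protein (COMP) was at 0.600, 0.667 and 7.96 FPKM in kid, youth and adult, thrombospondin 4 (THBS4), which is abundant in tendon and muscle, at 59.9, 55.0 and 83.9 FPKM, and tenomodulin (TNMD), a tendon cell marker named after its values were seen, at 1.51, 0.250 and 5.15 FPKM. The genes past 1.5-fold lower were KERA and CHAD. The remaining tested gene, proteoglycan 4 (PRG4), was lower by less than 1.5-fold, at 20.7, 18.5 and 14.2 FPKM in kid, youth and adult. PRG4 was named after its values were seen. Aggrecan (ACAN) was at 0.00935, 0.0397 and 0.0402 FPKM and type II collagen (COL2A1) at 0.717, 0.367 and 0.255 FPKM.

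Fibronectin (gene 102182645), the adhesive glycoprotein that cells bind through integrin alpha 5 beta 1, followed the SPARC order with a smaller swing. FN1 had 22.9, 27.2 and 18.9 FPKM in kid, youth and adult, and all 3 pairs of libraries differed beyond counting error. Youth was 1.19-fold above kid (1.10 to 1.28), and adult was 1.44-fold below youth (1.34 to 1.55) and 1.21-fold below kid (1.13 to 1.31). The smallest whole read numbers were 1417, 1586 and 1358. Its receptor subunit ITGA5 was at 15.73, 15.996 and 9.56 FPKM, past 1.5-fold lower in adult than in either other library, and was named after its values were seen.

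Over all 3 libraries elastin had the narrowest range of log2 levels among the 10 genes, and fibrillin 1 differed beyond counting error in the adult library alone. Elastin (gene 102169447) was at 50.8 FPKM in kid (2037 reads), 53.9 in youth (2038 reads) and 50.8 in adult (2367 reads). The adult to kid ratio of ELN was 0.9997 (0.942 to 1.06), its youth to kid ratio was 1.06 (0.998 to 1.13) and its adult to youth ratio 0.942 (0.887 to 0.9998). Fibrillin 1 (gene 102180397), the microfibril protein onto which elastin is deposited, was at 32.5 FPKM in kid (4897 reads), 32.0 in youth (4541 reads) and 26.0 in adult (4546 reads). Kid and youth could not be told apart by counting (0.984, interval 0.945 to 1.02), and adult was 1.23-fold below youth (1.18 to 1.28) and 1.25-fold below kid (1.20 to 1.30). The ELN level exceeded that of FBN1 by 1.56 times in kid, 1.69 times in youth and 1.96 times in adult. Of the related genes, fibrillin 2 (FBN2), best known from fetal tissue, was at 0.612, 0.785 and 0.631 FPKM.

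Lysyl oxidase (gene 102169472) was at 6.78 FPKM in kid (160 reads), 7.83 in youth (174 reads) and 6.68 in adult (183 reads). The 3 levels of LOX were not distinguishable by counting, with ratios of 1.15 for youth to kid (0.925 to 1.44), 0.853 for adult to youth (0.689 to 1.06) and 0.984 for adult to kid (0.792 to 1.22). These intervals leave room for a difference of up to 1.45-fold in the widest case, adult below youth. The paralogue LOXL1, which acts mainly on elastin, stood at the same height, at 6.93, 7.52 and 7.14 FPKM. The main fibrillar collagen substrate was less steady: COL1A1 exceeded LOX by 16.6 times in kid, 23.4 times in youth and 15.9 times in adult.

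**Figure D2:**
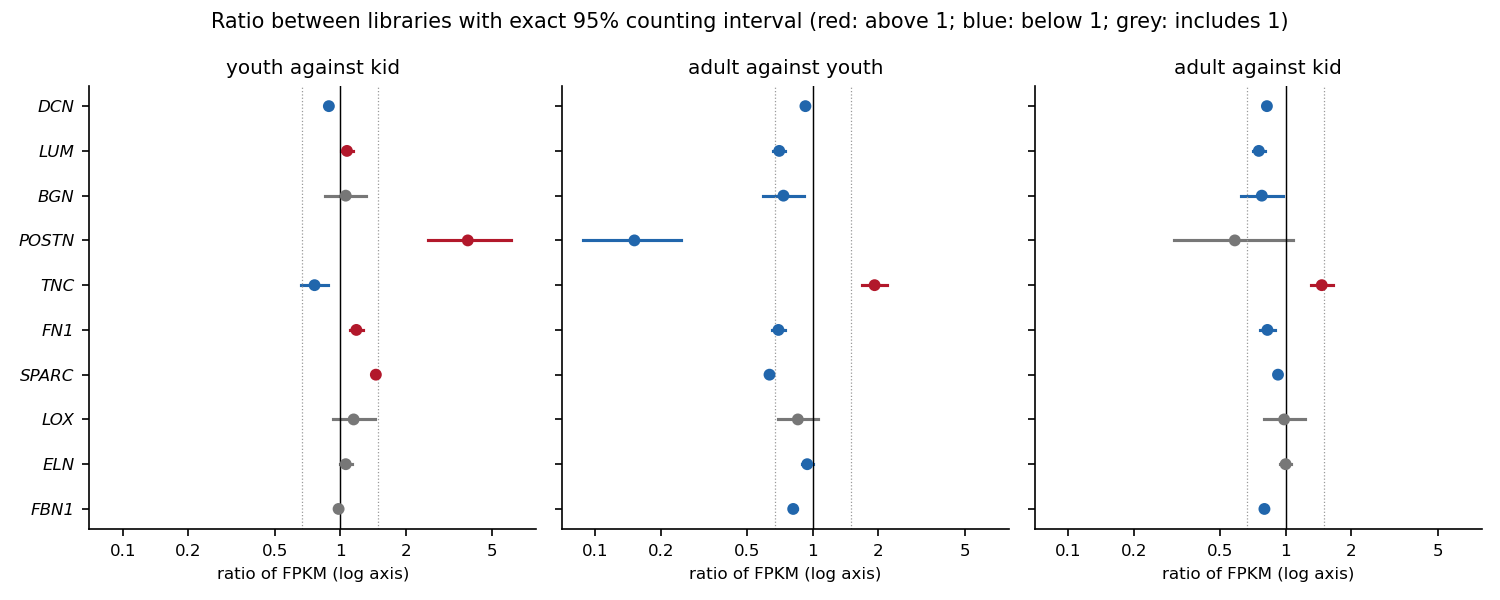
Ratio of FPKM (log axis) of each gene in the 3 pairs of libraries, with exact 95% counting intervals, where dotted lines mark 1.5-fold either way. The lines refer to plain FPKM, while counts past 1.5-fold in the text use the log2(FPKM + 1) scale. POSTN and TNC lay on opposite sides of 1 in adult against youth, at 0.151 and 1.92, while the intervals of LOX included 1 in each pair.

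Youth was compared with kid to see how the matrix genes stood at 2 and 9 months. Higher levels were found for 7 of 10 members in youth, among them POSTN, SPARC and FN1, against 35.7% of all genes tested, and lower levels for 3, against 64.3%. Differences were taken on the log2(FPKM + 1) scale, which understates the difference of low genes, and the members' median was 0.09 against -0.08 over all genes. POSTN was the 1 member of 10 past 1.5-fold higher (1.5% of all genes) and none was past 1.5-fold lower (3.77%). At 2-fold POSTN still counted as higher (0.421% of all genes) and no member as lower (0.627%). POSTN passed the minimum mean only through its youth level, so it had to be higher and is no support for any count of this comparison. The difference was beyond counting error for 4 members on the higher side, POSTN, SPARC, FN1 and LUM (11.6% of all genes), and for 2 on the lower side, DCN and TNC (26.9%). Genes with more reads pass counting error at smaller differences, and these shares of all genes are not matched to the members in depth. By mean level DCN, SPARC, LUM and ELN stood above 98.4%, 98.1%, 90.9% and 89.8% of the genes tested. With median-of-ratios scaling SPARC passed 1.5-fold too (log2 difference 0.65), and FBN1, at -0.02 on the deposited scale, turned to 0.08.

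Adult was compared with youth in the same way for 9 and 24 months. Of the members, 9 of 10 were lower in adult, against 52.7% of all genes, and 1 was higher, TNC, against 47.3%. The median difference was -0.36 over the members and -0.02 over all genes. Past 1.5-fold lower were POSTN and SPARC (2 of 10, against 5.45% of all genes), and TNC was past 1.5-fold higher (1 of 10, against 5.4%). At 2-fold only POSTN was counted, as lower (1.07% of all genes), and none as higher (1.01%). POSTN had to be lower in adult, by the same filter, and is no support for any count here. Counting error was exceeded by 8 of 10 on the lower side, all but LOX (27% of all genes), and by TNC on the higher side (22.3%). These shares were again not matched in depth. DCN passed at a log2 difference of -0.11, below which 38.5% of all genes lay, and the ELN interval reached 0.9998. The 1.5-fold call of SPARC ended when libraries were scaled by their upper quartile (log2 difference -0.58), and those of POSTN and TNC with a pseudocount of 5 (-0.43 and 0.45). The youth library is part of both this comparison and the previous one, so the values of each member in these comparisons are not independent.

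**Figure D3:**
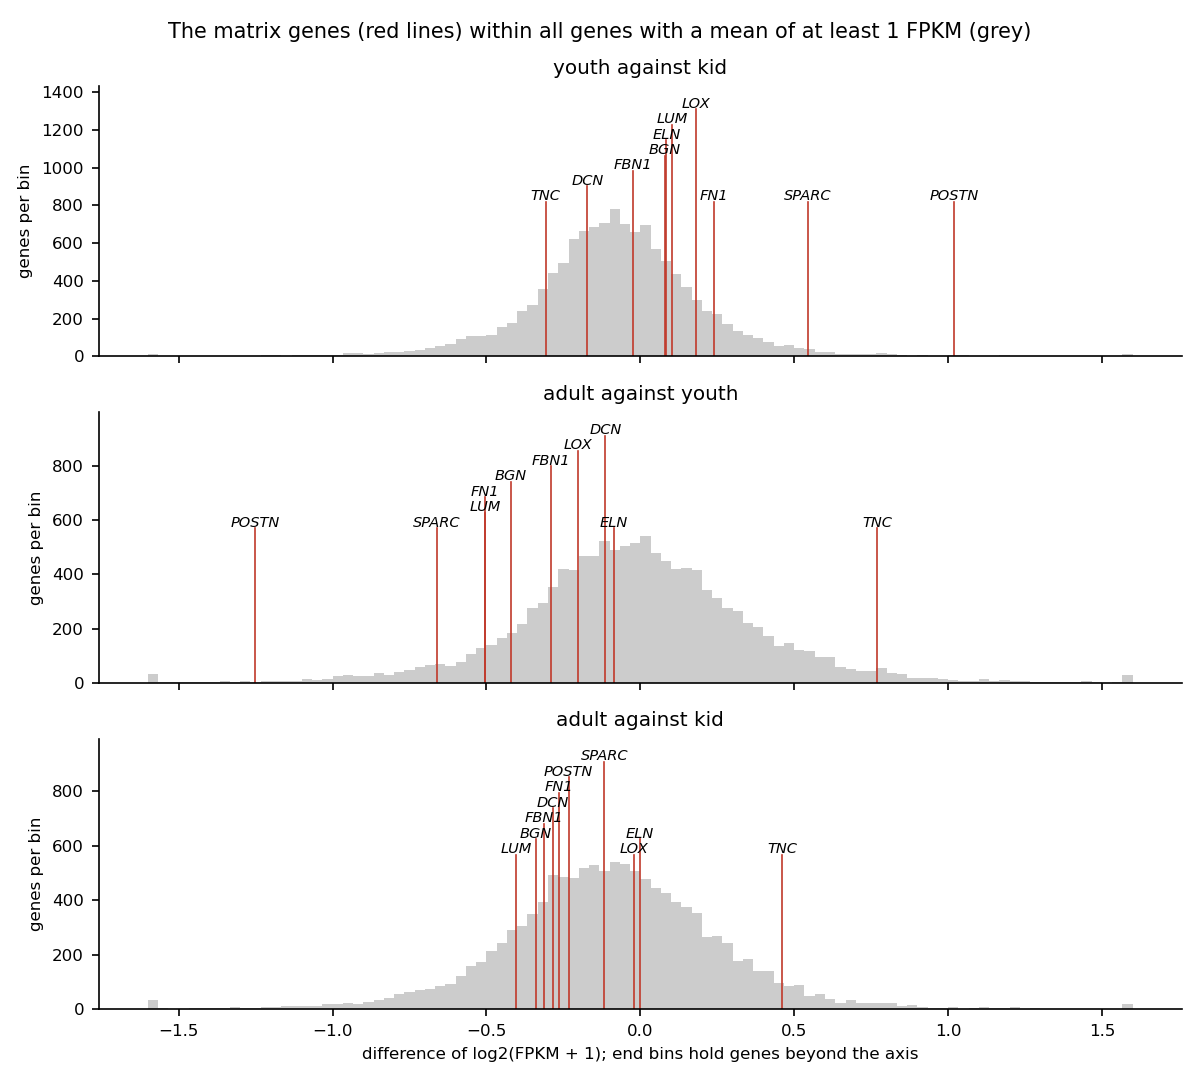
Histograms of the difference of log2(FPKM + 1) over 12121 genes (grey, genes per bin) in the 3 pairs of libraries, with red lines at the 10 matrix genes. In adult against youth 9 red lines lie left of 0 and TNC lies at 0.77, while in youth against kid POSTN lies at 1.02 and TNC at -0.31.

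Adult was compared with kid to set the oldest library against the youngest, 24 against 2 months. Here 9 of 10 members were lower in adult, against 62.5% of all genes, and TNC was higher (37.5%), but under median-of-ratios scaling 6 were lower and 4 higher, with SPARC, LOX and ELN turning. No member was past 1.5-fold in either direction (2.6% of all genes higher, 6.64% lower), although POSTN passed it on the lower side with a pseudocount of 0.1. At 2-fold the count of members was 0 as well, against 0.536% of all genes higher and 1.22% lower. The median was -0.25 over the members against -0.10 over all genes. Beyond counting error 6 members were lower, DCN, LUM, BGN, FN1, SPARC and FBN1 (34.6% of all genes), and TNC was higher (16.7%). These shares were not matched to the members in depth either.

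Genes that make, modify or read the same matrix were taken from 10 lists, given here by counts past 1.5-fold, by medians and by the genes that led them. Over all genes, 1.5% were past 1.5-fold higher and 3.77% lower in youth against kid, and 5.4% and 5.45% in adult against youth. At any size 64.3% and 52.7% of all genes were lower in these pairs. The counts use the log2(FPKM + 1) scale, on which a fold is smaller than the plain ratio of FPKM. Of 12 fibrillar and other collagen genes, 2 were past 1.5-fold higher in youth than in kid, COL1A1 and COL3A1, and none lower (median 0.25). From youth to adult 5 were past 1.5-fold lower and 1 higher (median -0.54). COL3A1, the most abundant, was at 221, 379 and 192 FPKM in kid, youth and adult. COL12A1, a collagen of fibril surfaces that is rich in tendon and fascia, had the TNC order, at 7.43, 5.96 and 9.97 FPKM. SPARC kept nearly the same proportion to COL1A1, at 2.50, 2.25 and 2.44 times its level, whereas DCN was at 3.69 times COL1A1 in kid, 2.02 times in youth and 3.21 times in adult.

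The 22 tested genes of crosslinking and collagen processing had a median of 0.22 in youth against kid, with 15 higher and 7 lower. None was past 1.5-fold on the log2(FPKM + 1) scale. The adult to youth median was -0.19, and 6 of 22 were past 1.5-fold lower. P4HA1, a prolyl hydroxylase that stabilises the collagen helix, was at 19.1, 28.7 and 16.8 FPKM. P4HA3, of the same enzyme family, was at 9.80, 13.2 and 4.72 FPKM. P3H1, a prolyl 3-hydroxylase, took the other direction at 12.5, 8.49 and 12.2 FPKM.

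Of 16 elastic fibre and microfibril genes, none was past 1.5-fold on the log2(FPKM + 1) scale in youth against kid (median 0.01). On that scale 4 were past 1.5-fold lower in adult than in youth (11 lower at any size, median -0.27). LTBP4, which binds latent TGF-beta and fibulin 5, was the most abundant and steady, at 63.4, 63.6 and 66.2 FPKM. MMRN2, a glycoprotein of endothelium, was at 22.9, 34.5 and 18.5 FPKM, and EFEMP1 (fibulin 3) at 14.6, 9.53 and 7.15 FPKM. The other 3 of those 4, FBLN5, LTBP1 and EMILIN2, were named after their values were seen, with FBLN5 at 29.7, 28.2 and 18.4 FPKM.

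Among 20 further matricellular genes and glycoproteins, 2 were past 1.5-fold lower in youth than in kid and none higher (median -0.13). These were thrombospondin 1 (THBS1), named after its values were seen, at 34.3 FPKM in kid and 16.7 in youth, and osteopontin (SPP1), at 2.34 and 0.584 FPKM, which passed the minimum mean only through its kid level and so had to be lower. In adult against youth 3 were higher and 2 lower past 1.5-fold (median -0.13), led by COMP and by TGFBI, a relative of periostin at 24.3, 32.0 and 17.8 FPKM in kid, youth and adult. COMP passed the minimum mean only through its adult level, so it had to be higher and is no support for the count. TGFBI thus had the order of POSTN. The 6 tested genes of large proteoglycans had medians of 0.04 in youth against kid and -0.23 in adult against youth. Perlecan (HSPG2), a basement membrane proteoglycan, led them at 28.0, 28.6 and 23.8 FPKM, and versican (VCAN) was at 5.90, 4.20 and 3.65 FPKM. The 16 tested enzymes of proteoglycan chain synthesis held no gene past 1.5-fold in any pair, with medians of -0.03 and -0.16 for the same pairs. The first of these medians turned to 0.05 under median-of-ratios scaling.

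The 16 TGF-beta signalling genes had medians of -0.13 in youth against kid, where 5 were higher and 11 lower, and -0.40 in adult against youth, where 2 were higher and 14 lower. TGFB2, a ligand, was at 4.51, 4.42 and 6.99 FPKM in kid, youth and adult. The 13 tested proteases and inhibitors had medians of -0.15 and -0.25. TIMP3, a matrix-bound protease inhibitor, was at 100.3, 102.5 and 65.5 FPKM, while MMP2, a gelatinase, was at 31.2, 42.1 and 34.5 FPKM. The 16 tested matrix receptors had medians of -0.04, which changed sign under median-of-ratios scaling, and -0.08. Past 1.5-fold lower in adult than in youth were ITGA5 and the heparan sulphate proteoglycan SDC4, the latter at 119, 116 and 60.1 FPKM in the 3 libraries from youngest to oldest.

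**Figure D4:**
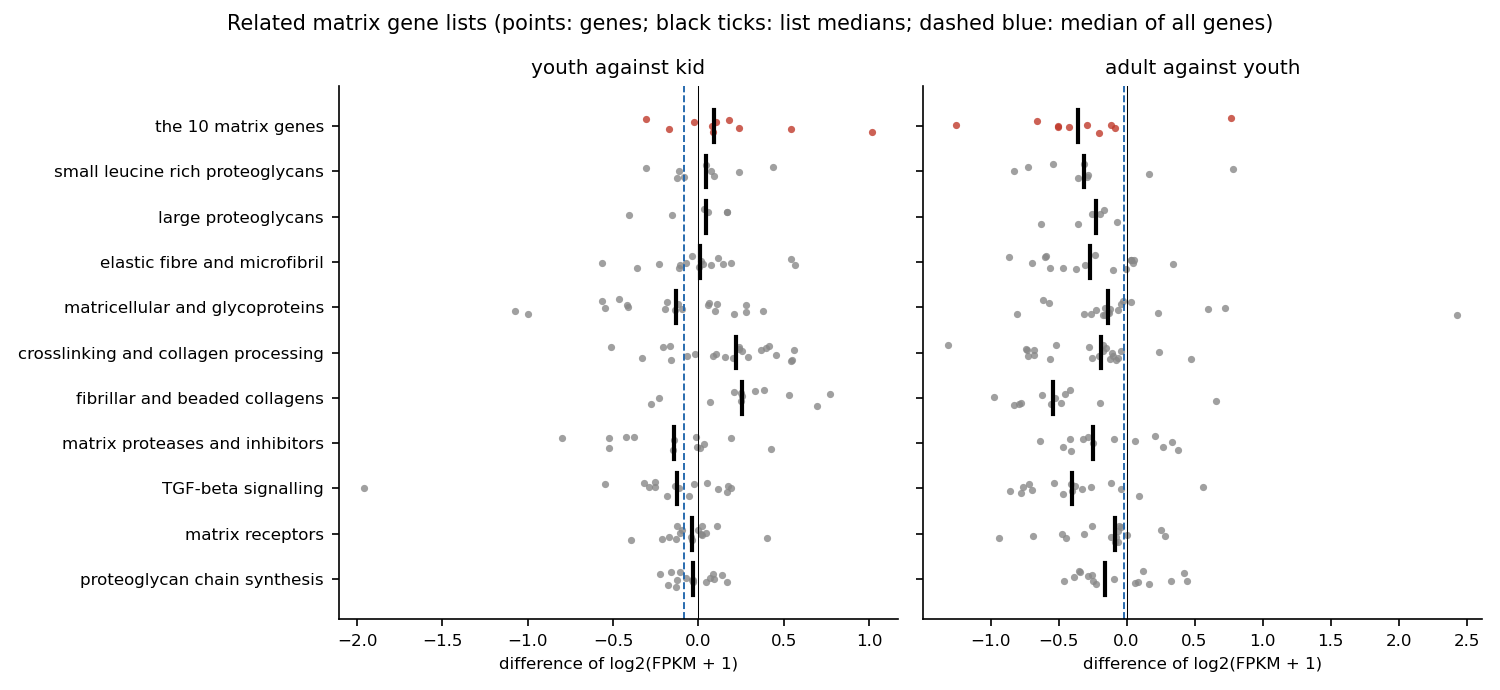
Difference of log2(FPKM + 1) for each tested gene (points) of the 10 matrix genes and of 10 related lists, in youth against kid and adult against youth, with list medians as black ticks and the median of all genes dashed. The collagen list has medians of 0.25 and -0.54, and the 10 matrix genes 0.09 and -0.36.

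Markers of the cells that make or border the matrix were read beside these values, and their part in the members' levels was not tested. Fibroblast markers did not share the youth peak: 13 of 13 tested genes were lower in youth than in kid (median -0.15) and 13 of 13 lower in adult than in youth (median -0.22), none past 1.5-fold in the first pair and 2, C3 and PDPN, in the second. Over all genes 64.3% were lower in youth than in kid, with a median of -0.08, and under median-of-ratios scaling 10 fibroblast genes were lower and 3 higher (median -0.08). In adult against youth 52.7% of all genes were lower (median -0.02), 5.45% past 1.5-fold. Under median-of-ratios scaling 12 fibroblast genes were lower in that pair and 1 higher (median -0.18). Their summed FPKM was 874 in kid, 775 in youth and 671 in adult, and the receptor PDGFRA was at 13.6, 11.0 and 9.82 FPKM. DCN had that same order of libraries, and so did FBN1, whose kid and youth levels could not be told apart by counting. In contrast SPARC, FN1, LUM and POSTN were above kid in youth beyond counting error, where POSTN had to be higher by the minimum mean. Smooth muscle and pericyte genes summed to 4643, 4396 and 4671 FPKM (medians -0.31 in youth against kid and 0.25 in adult against youth, 12 genes). Desmin (DES) is in this list and in the myofibre list, so the sum also holds RNA of muscle fibres. Of the 12 genes, 11 were lower and 1 higher in youth than in kid, and 3 lower and 9 higher in adult than in youth. Endothelial genes summed to 260.1, 229.6 and 227 FPKM (medians -0.12 and -0.04, 9 genes tested, the second 0.04 under upper-quartile scaling). Macrophage genes summed to 80.5, 87.4 and 43.7 FPKM, and 7 of 9 were past 1.5-fold lower in adult than in youth (medians 0.11 and -0.84). Adipocyte genes summed to 191, 129 and 139 FPKM (medians -1.30 and 0.40, 5 genes tested), and Schwann cell genes to 207, 121 and 79.2 FPKM (medians -0.74 and -0.54, 4 genes tested).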

How the data were processed

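The authors deposited 1 table of FPKM with 1 column per library, matched to its stage by the letter in the sample title. The tools listed in the submitters' processing notes are FastQC, TopHat2 and DESeq, with neither versions nor roles. Build, annotation, strand setting and counting of shared reads were not given in the sources used here. Which reads were in the total that FPKM divides by was not given either. Abundant muscle genes make up part of such a total and can shift every other value.

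Symbols came from a RefSeq table of the goat assembly ARS1.2, which matched 21743 of 24689 entries by gene number, with 7 list genes matched by product text and 8 of 257 unmatched. That table also gave the gene order behind the neighbours of LUM and DCN, and no coordinates are printed. Totals, gene lengths and reads were recovered from the FPKM values, as whole numbers within 5e-05 of a read plus a relative rounding allowance of 6e-10. Every one of the 16054 entries detected in 3 libraries and the 1157 detected in 2 gave whole reads, which held 95.3%, 94.9% and 96.3% of the totals of kid, youth and adult. The smallest fitting length was kept (685 bases for BGN, 3909 for FN1), so reads can be too few and an interval too wide. For a gene of 1 kb, 3 reads amount to 0.190, 0.201 and 0.163 FPKM.

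Differences were taken on the log2(FPKM + 1) scale among 12121 entries with a mean of at least 1 FPKM. Counts use 1.5-fold on that scale. Ratios have exact conditional (Clopper-Pearson) 95% intervals and levels exact Poisson intervals (scipy 1.17.1). The steps were tested on simulated reads. Alternatives were other pseudocounts, filters, 5 scalings and 2-fold. The members, lists and rules were chosen with earlier results of these data known. All 10 members were named, and of each related list the most abundant gene and the ends of each comparison were open to naming; others are partners of a member or cell markers, or were named after their values were seen. A result for 1 gene of the related lists is not reported here.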

Additional observations from a re-analysis of the deposited data

How the results depend on the processing

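Scaling shifted all genes together: the median of all genes in adult against kid was -0.10 on the deposited scale and 0.02 with median-of-ratios size factors. Relative to that median, the members' median was 0.18, -0.34 and -0.15 with the deposited values for youth against kid, adult against youth and adult against kid. With median-of-ratios factors it was 0.19, -0.33 and -0.16. Such a factor multiplies a whole library and moves both medians nearly alike, so this likeness was fixed in advance. Quantile normalization, which is no single factor, gave 0.14, -0.34 and -0.21. The members' median in youth against kid itself moved from 0.09 to 0.19 with these factors. The count past 1.5-fold in youth against kid was 1, but 2 with median-of-ratios factors or after rescaling without the 10 most abundant genes, and 0 with a pseudocount of 5 or a mean of at least 5 FPKM, a filter that drops POSTN and TNC. In adult against youth it was 3, but 1 with a pseudocount of 5, with that filter or at 2-fold. In adult against kid it was 0, but 1 with a pseudocount of 0.1 (POSTN, lower) or quantile normalization (TNC, higher). The cause was not tested beyond the genes a filter removes. Other pseudocounts and filters cannot change the sign of a difference, so only the 5 scalings could do so. The 264 single values of members under alternatives hold both kinds and do not measure how stable the signs are. Of these values 12 changed sign, all under scalings: ELN in adult against kid in 4, FBN1 in youth against kid in 4, LOX in adult against kid in 3 and SPARC in adult against kid in 1. None of these was past 1.5-fold. No replicate could be left out, and no paired analysis was possible because each stage has 1 library. By the smallest fitting lengths, depth limits POSTN, LOX and BGN most, at no more than 183 reads in a library. BGN may have more reads than that, since its true length may be longer than the one kept.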

Other observations

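LUM and DCN are neighbours in the goat assembly ARS1.2, with KERA on the other side of LUM and EPYC beyond it. These adjacent proteoglycan genes differed in level and in order of libraries. KERA was at 10.4, 12.4 and 7.13 FPKM in kid, youth and adult, the order of LUM, and LUM exceeded it by 6.11, 5.48 and 6.68 times. DCN had its highest level in kid instead. EPYC had 1, 1 and 2 reads. KERA and EPYC were chosen for their place next to LUM after their values were seen.

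FN1 exceeded TNC by 5.38 times in kid, 8.37 times in youth and 3.02 times in adult.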
